A study of Mus musculus with 29 samples.

Results

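The genes described here encode the proteins of the cytosolic ribosome, and their mRNA levels were followed in mouse liver with and without Maf1. They were chosen by symbol: Rpl or Rps followed by a number, with up to a pair of trailing letters and a final 1 allowed, together with Rplp0, Rplp1, Rplp2 and Rpsa. S6 kinase genes and symbols marked as pseudogene copies were left out. The rule found 87 of the 12992 genes in the count table, of which 50 have large-subunit symbols, 35 have small-subunit symbols and 2 encode no subunit. Those 2 are Rpl7l1, related to a large-subunit assembly factor of yeast, and Rps19bp1, which binds Rps19.

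Liver RNA was sequenced from 29 male C57BL/6J mice aged 13 to 14 weeks, with 1 library per mouse, all fasted overnight and refed for 4 h before collection. The groups were 5 Maf1-/- mice lacking Maf1 in the whole body against 7 Ctrl mice, both on chow, then 4 Maf1hep-/- against 5 Ctrl mice on a high-fat (HF) diet, and 4 Maf1hep-/- against 4 Ctrl mice on chow. Maf1hep-/- mice were homozygous for a floxed Maf1 allele, whose loxP sites lie within intron 1 and exon 8, and hemizygous for Alb-Cre, which is driven by the albumin promoter and acts in hepatocytes, so other liver cells kept the gene. Their Ctrl mice carried the floxed allele without Cre. The HF diet, with 60% of calories from lard-based fat, was given from the age of 4 to 5 weeks. The HF cohort was sequenced separately, for 150 cycles on 2 lanes, so diet cannot be told apart from cohort, sequencing run and depth.

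Maf1 is a repressor of RNA polymerase III, which transcribes tRNA and 5S rRNA genes. Each cytosolic ribosome pairs a small subunit, which reads the mRNA, with a large subunit, which joins amino acids, and cells make their proteins in balance with ribosomal RNA. Ribosomal protein mRNAs start with a C followed by a run of C and T, the 5′ terminal oligopyrimidine (TOP) motif, through which mTORC1 controls their translation more than their amount. They also have many processed pseudogene copies in the mammalian genome, so that reads from one gene can match another.

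Total expected counts per library ran from 43564164 to 75682301 on chow and from 25544816 to 32319706 on the HF diet. Maf1 itself averaged 0.382 ± 0.417 CPM (counts scaled to a common library size) in Maf1-/- livers and 8.72 ± 1.98 CPM in Ctrl livers (SD, n = 5 and 7, exact permutation test, two-sided, p = 0.00126). It averaged 1.59 ± 0.186 CPM in HF-fed Maf1hep-/- livers and 16.6 ± 2.63 CPM in their Ctrl (SD, n = 4 and 5, exact permutation p = 0.00794). On chow it averaged 3.44 ± 0.610 CPM in Maf1hep-/- livers and 17.3 ± 1.79 CPM in Ctrl livers (SD, n = 4 each, exact permutation p = 0.0286). Each of these p-values is the smallest the design allows. All 8 hepatocyte markers were detected, with summed levels of 79039 to 129900 CPM over the 29 livers, and 0 of 9 lymphocyte markers were in the table. Whole-body Ctrl mouse 2 stood apart from the other 6 Ctrl mice of its cohort in the levels of the genes described here. For that cohort the summed level, the call counts and some single genes are given with and without it. The GC classes, the pyrimidine runs, the gene lists and the comparisons with other cohorts are given with it only.

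The start of the transcript is where a TOP motif would lie, so the window from 10 bases before to 20 bases after the annotated start is shown for 8 genes on which the results turn, from RefSeq on GRCm38.p6. Capitals mark a run of a C followed by at least 4 more C or T on the coding strand that begins within 10 bases of the start. Rplp2 (chr7:141447641-141447670, plus strand), Rps6 (chr4:86857348-86857377, minus strand) and Rps21 (chr2:180257369-180257398, plus strand) had such a run. Rps21 had 2 annotated starts, and a start with a run was preferred for the window shown.
Rplp2: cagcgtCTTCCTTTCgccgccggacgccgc
Rps6: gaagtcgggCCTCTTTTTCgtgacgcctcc
Rps21: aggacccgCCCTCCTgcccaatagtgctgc
No run of this form began within the same distance in Rplp0 (chr5:115559457-115559486, plus strand), Rps28 (chr17:33824543-33824572, minus strand), Rpl5 (chr5:107900518-107900547, plus strand), Rps3 (chr7:99483690-99483719, minus strand) or Rpl24 (chr16:55966265-55966294, plus strand).
Rplp0: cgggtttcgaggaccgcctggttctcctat
Rps28: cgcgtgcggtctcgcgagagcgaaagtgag
Rpl5: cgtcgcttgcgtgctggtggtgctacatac
Rps3: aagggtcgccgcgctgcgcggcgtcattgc
Rpl24: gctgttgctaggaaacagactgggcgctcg

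The annotated start can differ from the start used in liver, so these letters describe the annotation only. Of the 87 genes, 64 had an entry in the promoter table, and 37 of the 64 (57.8%) held a run within 10 bases of the start, against 34.4% of all 27025 genes in that table and 37.5% of the 9371 other genes that were also in the count table. Runs of at least 7 bases were found in 45.3% of the ribosomal protein genes and 14.1% of all genes in the promoter table. The base at the annotated start was C or T in 50% of the ribosomal protein genes, against 24.0% of the other genes, and the base 4 after it in 76.6%, against 52.1%. Rplp1 had no entry.

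**Figure D1:**
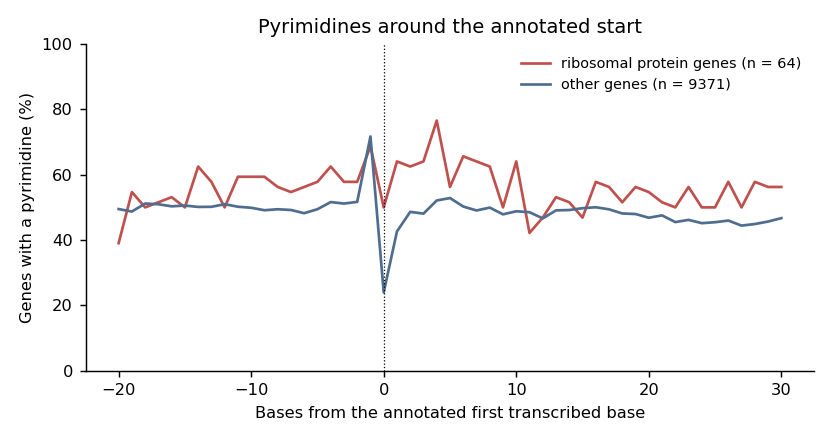
Share of genes (%) with C or T at each position from 20 bases before to 30 bases after the annotated transcript start, for 64 ribosomal protein genes and 9371 other genes of the count table. The ribosomal protein genes lie above the others just after the start, at 76.6% against 52.1% for the base 4 after it.

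The 87 genes lie on 19 chromosomes. The annotation (GRCm38, GENCODE vM21) lists 83 as protein coding, 2 as processed pseudogenes (Rps12l1 and Rpl6l) and 2 as transcribed processed pseudogenes (Rpl37rt and Rps4l). Their transcripts are 345 to 5130 nt long with a median of 771 nt, and their GC content runs from 39.8% to 60.8% with a median of 51.8%. Per kilobase of transcript and over all 29 livers, the highest levels were those of Rps24 (371 CPM per kb), a small-subunit protein, Rpl10 (308 CPM per kb), which joins the large subunit late in its maturation, and Rps6 (279 CPM per kb), the substrate of the S6 kinases. The lowest were Rpl6l (2.03 CPM per kb), Rps27rt (2.98 CPM per kb) and Rpl37rt (4.58 CPM per kb), copies of other ribosomal protein genes. Over the 20 Chow-fed livers alone the order of the highest was Rpl10 (435 CPM per kb), Rps24 (433 CPM per kb) and Rps6 (403 CPM per kb), and the first pair differed by less than the spread between mice.

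Mice of the same group varied most in the small-subunit gene Rps16, with a within-group SD of 1.05 on the log2 scale, in the large-subunit gene Rpl36 (1.04) and in the small-subunit gene Rps29 (0.863). The median over the 87 genes was 0.267, and the smallest value was that of Rpl22 (0.126), an RNA-binding large-subunit protein. Rps16 had 3.49, 62.7, 7.28, 5.63 and 5.43 CPM in the 5 Maf1-/- livers, against 10.3, 7.04, 66.1, 77.4, 73.7, 76.6 and 66.8 CPM in the 7 Ctrl livers. It therefore fell into a low set of 3.49 to 10.3 CPM and a high set of 62.7 to 77.4 CPM, and both genotypes had mice in each.

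Summed over the 87 genes, the level did not separate knockout from Ctrl livers in any cohort. The sum was 9897, 9484, 8950, 10232 and 11912 CPM in the 5 Maf1-/- livers, against a lowest of 8641, a median of 11017 and a highest of 12080 CPM in the 7 Ctrl livers. The means were 10095 ± 1123 and 10848 ± 1135 CPM (SD), a ratio of 0.931. Without Ctrl mouse 2, whose sum was the lowest, the 6 remaining Ctrl livers averaged 11216 ± 639 CPM and the ratio was 0.900.

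In the hepatocyte cohort on the HF diet the sum was 3989, 4854, 4322 and 5095 CPM in Maf1hep-/- livers, against 4290, 4870, 4698, 4960 and 4137 CPM in Ctrl livers, a ratio of means of 0.994. On chow it was 11191, 8822, 10213 and 11101 CPM in Maf1hep-/- livers, against 11638, 12527, 12026 and 10047 CPM in Ctrl livers, a ratio of 0.894. The ranges overlapped in both cohorts. HF-fed floxed Ctrl livers averaged 4591 ± 362 CPM and Chow-fed floxed Ctrl livers 11559 ± 1072 CPM (SD, n = 5 and 4), a ratio of 0.397. Taken as a share of all counts, with no scaling between libraries, that ratio was 0.527.

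**Figure D2:**
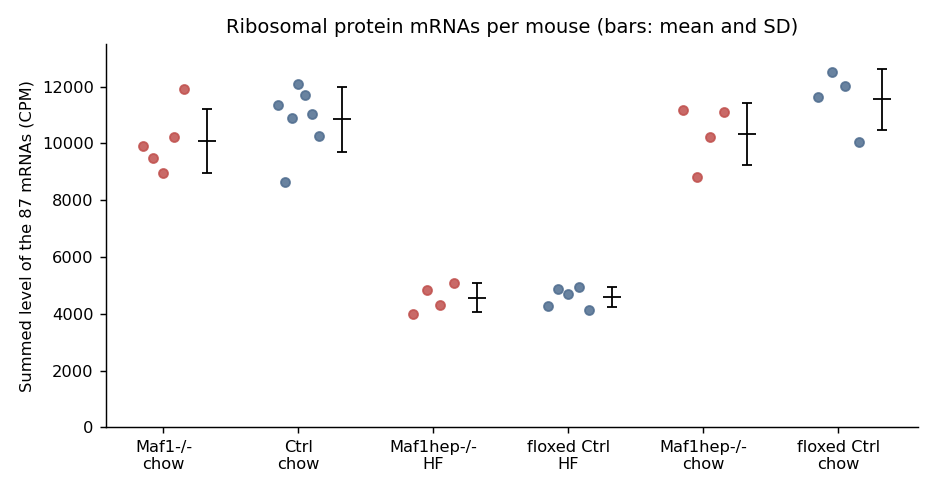
Summed level (CPM) of the 87 mRNAs in each of the 29 livers, by group, with 1 dot per mouse and the mean and SD as bars. Knockout and Ctrl livers overlap in every cohort, and the 9 HF-fed livers lie between 3989 and 5095 CPM, below every Chow-fed liver.

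In Maf1-/- livers no ribosomal protein mRNA passed an adjusted p of 0.05 (edgeR quasi-likelihood test, Benjamini-Hochberg adjustment over 12796 genes), where 0.0156% of all genes did. At an unadjusted p under 0.05, 27 of the 87 were lower, against a background of 15.4% of all genes, and 3 were higher, against 10.8%. The estimate was below zero for 56 of 87, and for 50 of 87 when the fit took transcript length into account. The median log2 fold change was -0.22 (large subunit -0.18, small subunit -0.26), while that of all genes was 0.00. The smallest adjusted p among them was 0.152. DESeq2 called 1 of the 87 (Rps4l, background 2.45%) and limma-voom 0. With 1 factor of unwanted variation estimated from residuals (RUVr), limma-voom called 30 lower (background 17.9%) and 5 higher (background 15.7%), and with 3 factors 45 lower (background 25.2%) and 9 higher (background 22.7%). In bulk liver, fewer cells of a type and less RNA per cell cannot be told apart.

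The stalk proteins Rplp0, Rplp1 and Rplp2, which form the arm of the large subunit that recruits elongation factors, had some of the largest estimates. Rplp0 (chr5:115559467-115563727, plus strand) had 147, 183, 84.6, 104 and 160 CPM in Maf1-/- livers, against 70.1, 247 and 280 CPM (lowest, median, highest) in Ctrl livers. Its log2 fold change was -0.69 ± 0.27 (SE, adjusted p = 0.160, edgeR). Ctrl mouse 2 was below every Maf1-/- mouse, and the other 6 Ctrl mice, at 220 to 280 CPM, were above all of them.

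Rplp1 (chr9:61913284-61914542, minus strand) had 38.5, 50.5, 15.8, 9.08 and 26.7 CPM in Maf1-/- livers, against 12.8, 86.4 and 128 CPM (lowest, median, highest) in Ctrl livers (log2 fold change -1.47 ± 0.48, edgeR adjusted p = 0.152). Rplp2 (chr7:141447370-141451585, plus strand) had 10.03, 24.3, 4.47, 3.60 and 11.9 CPM in Maf1-/- livers, against 3.37, 38.6 and 46.3 CPM in Ctrl livers (-1.59 ± 0.54, edgeR adjusted p = 0.152). For both genes the lowest Ctrl value belonged to mouse 2, and the other Ctrl mice lay above every Maf1-/- mouse.

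Among small-subunit genes with the smallest p were Rps28, Rps19, which is mutated in human Diamond-Blackfan anaemia, and Rps4l, a pseudogene relative of Rps4x. Rps28 (chr17:33819027-33824562, minus strand) had 39.5, 51.5, 28.6, 35.5 and 31.4 CPM in Maf1-/- livers, against 27.7, 62.5 and 69.6 CPM (lowest, median, highest) in Ctrl livers, with a log2 fold change of -0.62 ± 0.19. Rps19 had 54.7, 59.5, 39.9, 43.3 and 49.98 CPM in Maf1-/- livers, against 34.4, 82.8 and 88.0 CPM in Ctrl livers, with -0.56 ± 0.18. Rps4l, at 1.55 to 3.83 CPM in Maf1-/- livers and 1.54 to 9.27 CPM in Ctrl livers, had -1.25 ± 0.37. All 3 had an edgeR adjusted p of 0.152, and in all 3 the groups overlapped through Ctrl mouse 2 alone.

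The lowest estimates among the rest were those of genes that also varied most within groups. Rps29 had 25.5, 44.5, 8.29, 10.8 and 19.5 CPM in Maf1-/- livers, against 4.83, 63.7 and 77.9 CPM (lowest, median, highest) in Ctrl livers (log2 fold change -1.35 ± 0.52, edgeR adjusted p = 0.159). Rpl36 had 9.39, 13.3, 2.10, 2.54 and 7.79 CPM in Maf1-/- livers, against 1.21, 26.6 and 28.8 CPM in Ctrl livers (-1.59 ± 0.60, edgeR adjusted p = 0.157). Rps16, with its low and high mice in both genotypes, had -1.66 ± 0.78 (edgeR adjusted p = 0.192). The lowest Ctrl value of Rps29 and of Rpl36 was below every Maf1-/- liver, and the remaining Ctrl livers were above all of them.

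Estimates above zero were fewer. Rps6 (chr4:86854660-86857412, minus strand) had 385, 267, 432, 515 and 482 CPM in Maf1-/- livers, against 253, 296 and 438 CPM (lowest, median, highest) in Ctrl livers, with 0.41 ± 0.19 on the log2 scale (edgeR adjusted p = 0.191). The 3 with an unadjusted p under 0.05 and a higher estimate, picked out here after their values were seen, were Rps3a1 (0.33 ± 0.13), Rpl23 (0.37 ± 0.16) and Rpl21 (0.34 ± 0.15). Rps24, among the highest members per kilobase, had 265, 180, 296, 333 and 342 CPM in Maf1-/- livers, against 167, 211 and 327 CPM in Ctrl livers, with 0.42 ± 0.21 (edgeR adjusted p = 0.204). In Rps6 and Rps24 the ranges of the genotypes overlapped over most of their length when all 7 Ctrl livers were counted. The highest Ctrl value of both genes was that of mouse 2. The other Ctrl livers lay at 253 to 387 CPM of Rps6 and 167 to 242 CPM of Rps24, still overlapping the Maf1-/- livers. Rpl5, which binds 5S rRNA with Rpl11 before joining the large subunit, had 0.04, and Rpl11 had -0.26 ± 0.12. Rpsa, whose protein is also known as the laminin receptor, had -0.23 ± 0.18.

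**Figure D3:**
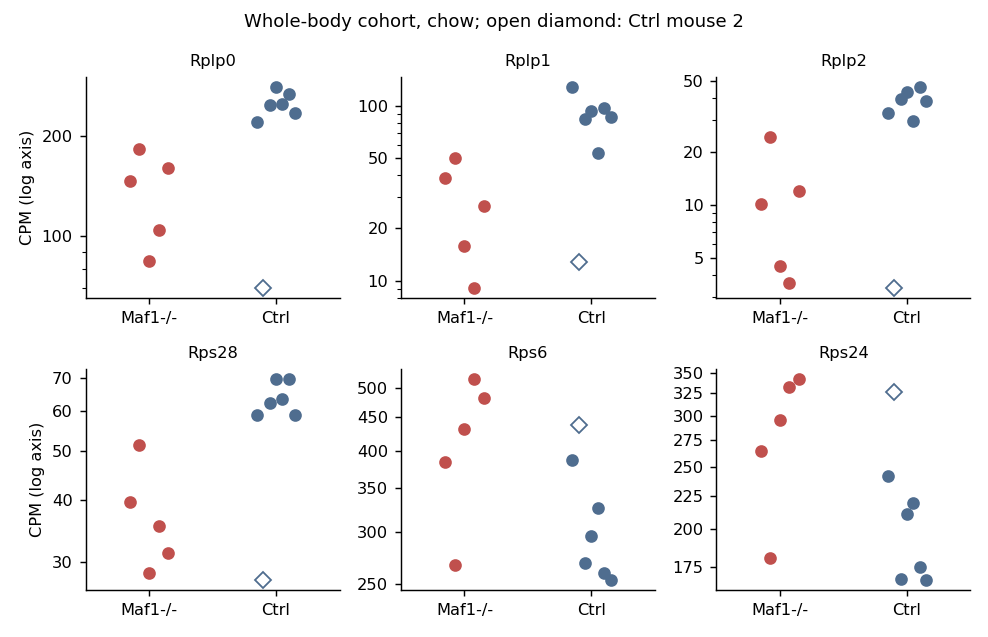
Level (CPM, log axis) of Rplp0, Rplp1, Rplp2, Rps28, Rps6 and Rps24 in 5 Maf1-/- and 7 Ctrl livers on chow, with 1 point per mouse and Ctrl mouse 2 as an open diamond. For Rplp0 the Maf1-/- livers sit at 84.6 to 183 CPM, Ctrl mouse 2 at 70.1 CPM and the other Ctrl livers at 220 to 280 CPM.

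Leaving out Ctrl mouse 2 changed the calls. This mouse was picked out by its low values of these same genes, and no Maf1-/- mouse was left out beside it. Lower calls therefore follow in part from the choice and are given as a description only. Against the other 6 Ctrl mice, 37 of the 87 mRNAs fell at an adjusted p under 0.05 (background 18.4% of 12792 genes) and 4 rose (background 17%). Rps28 then had a log2 fold change of -0.73 (edgeR adjusted p = 0.00395), Rps19 -0.67 (0.00394), Rplp1 -1.65 (0.00667) and Rps4l -1.40 (0.00547). With all 7 Ctrl mice, 0 of 87 had every Maf1-/- liver below every Ctrl liver (0.211% of all genes). Without mouse 2 this held for 26 of 87 (9.48% of all genes), the stalk genes Rplp0, Rplp1 and Rplp2 among them, and 0 had every Maf1-/- liver above every Ctrl liver (4.54% of all genes).

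The estimates moved with GC content. The 29 ribosomal protein genes with the lowest GC content (39.8% to 49.5%) had a median log2 fold change of 0.04 with 12 of 29 below zero, the middle 29 had -0.22 with 20 below zero, and the 29 with the highest GC content (53.8% to 60.8%) had -0.50 with 24 below zero. All genes in the same GC ranges had medians of 0.17, -0.05 and -0.34. Across the 87 genes Spearman's rho between fold change and GC content was -0.51, and across 12787 genes it was -0.69, given as a description because genes in one set of libraries are not independent. With a GC term in the fit, the median of the 87 was -0.09 and 55 were below zero, and Rps19 had -0.16 and Rps4l -0.66.

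Per mouse, the mean log2 level of the GC-rich minus the GC-poor ribosomal protein genes was -0.51, -0.59, -1.17, -1.10 and -0.81 in Maf1-/- livers, against -0.54 to -0.14 in 6 Ctrl livers and -1.29 in Ctrl mouse 2. In the Chow-fed hepatocyte cohort it lay between -0.07 and 0.03. Stellate cell markers (8 of 8 detected) summed to 473 to 788 CPM in Maf1-/- livers and 398 to 579 CPM in Ctrl livers, Kupffer cell markers (10 of 10) to 276 to 404 CPM and 260 to 491 CPM, and erythroid markers (5 of 5) to 59.0 to 158 CPM and 65.2 to 209 CPM. The part of GC content and of these cells in the fold changes was not tested beyond the fit with a GC term.

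In Chow-fed Maf1hep-/- livers the estimates were small and all on one side. Of 86 ribosomal protein mRNAs tested (Rps27rt was too low), 86 had an estimate below zero, but 77 of 86 when transcript length was taken into account. The median was -0.16 and the range -0.46 to -0.03, while 53.1% of all genes were below zero. Of 20 other TOP mRNAs (translation factors and relatives), 19 were also below zero, with a median of -0.13. Spearman's rho between fold change and transcript length was 0.37 across 12561 genes and -0.01 across the 86, given as a description. None passed an adjusted p of 0.05 (background 0.0159% of 12570 genes). At an unadjusted p under 0.05, 7 were lower (background 0.907%) and 0 higher (background 187 of 12570 genes). In 0 of them did the groups not overlap on the lower side (background 0.756%). DESeq2 and limma-voom called none either.

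The median of -0.16 was close in size to the SD between mice of the mean log2 level of these genes, 0.150. It also rested in part on Maf1hep-/- mouse 2, which had the lowest sum. Without that mouse the median was -0.09 and 80 were below zero. Kupffer cell markers summed to 242 to 344 CPM in Chow-fed Maf1hep-/- livers and 227 to 304 CPM in Ctrl livers, and erythroid markers to 90.0 to 315 CPM and 85.4 to 297 CPM, and their part in the values was not tested.

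The smallest p-values in this comparison belonged to Rpl5, Rps21, Rps3, which lines the mRNA entry channel, and Rps23, which lies at the decoding centre. Rpl5 (chr5:107900502-107909005, plus strand) had 142, 116, 148 and 151 CPM in Maf1hep-/- livers, against 179, 188, 179 and 143 CPM in Ctrl livers (log2 fold change -0.31 ± 0.11). Rps21 (chr2:180257377-180258445, plus strand) had 39.5, 29.3, 32.5 and 34.7 CPM in Maf1hep-/- livers, against 40.8, 44.6, 39.9 and 37.0 CPM in Ctrl livers (-0.26 ± 0.10). In each gene 1 Maf1hep-/- mouse or more reached into the Ctrl range through Ctrl mouse 4, the lowest of that group.

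Rps3 (chr7:99477896-99483738, minus strand) had 154, 125, 150 and 164 CPM in Maf1hep-/- livers, against 174, 185, 192 and 155 CPM in Ctrl livers (-0.25 ± 0.10), and Rps23 (chr13:90922958-90924950, plus strand) had -0.24 ± 0.10. The edgeR adjusted p was 0.997 for these 4 genes. The stalk gene Rplp0 had 280, 206, 256.1 and 280 CPM in Maf1hep-/- livers, against 280, 321, 304 and 257 CPM in Ctrl livers, and Rplp1 had 170, 151, 119 and 173 CPM, against 169, 179, 175 and 135 CPM. The groups overlapped in both genes, over most of the range in Rplp1 and between 257 and 280 CPM in Rplp0.

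In HF-fed Maf1hep-/- livers the estimates were spread around zero. Of 80 mRNAs tested, 46 were below zero and 34 above, with a median of -0.04. None passed an adjusted p of 0.05 (background 0.0162% of 12378 genes), 5 were lower at an unadjusted p under 0.05 (background 2.74%) and 2 were higher (background 3.3%). DESeq2 and limma-voom also called 0. The 7 too low for this test were Rpl24, Rpl36al, Rpl37rt, Rpl6l, Rps12l1, Rps27rt and Rps29.

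Rps4x was the 1 gene whose Maf1hep-/- livers (157, 174, 156 and 166 CPM) all lay below the HF-fed Ctrl livers (175, 176, 200, 184 and 188 CPM), where 0.856% of all genes did so. Its log2 fold change was -0.19 ± 0.08 (edgeR adjusted p = 0.809). Rps28 had 15.8, 17.7, 14.5 and 13.8 CPM in Maf1hep-/- livers, against 15.7, 25.1, 23.2, 21.9 and 15.6 CPM in Ctrl livers (-0.41 ± 0.16, edgeR adjusted p = 0.787). Rpl5 had 10.6, 12.5, 8.70 and 10.8 CPM in Maf1hep-/- livers, against 13.4, 14.9, 11.6, 11.1 and 14.01 CPM in Ctrl livers (-0.30 ± 0.12, edgeR adjusted p = 0.794). In both genes the groups overlapped by 1 or 2 mice of each genotype.

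Rps21 went the other way, with 31.8, 37.6, 34.8 and 51.7 CPM in HF-fed Maf1hep-/- livers, against 29.3, 34.4, 28.2, 31.8 and 30.1 CPM in Ctrl livers (0.33 ± 0.13, edgeR adjusted p = 0.794). Its value rested on mouse 4, without which the log2 fold change was 0.16. Rps13 had 4.48, 5.21, 8.49 and 9.65 CPM in HF-fed Maf1hep-/- livers, against 3.71, 5.54, 4.78, 5.62 and 3.19 CPM in Ctrl livers. Mice 3 and 4 of the Maf1hep-/- group were above every Ctrl mouse and mice 1 and 2 were within their range. The stalk gene Rplp1 had 21.9, 41.2, 54.0 and 60.6 CPM in Maf1hep-/- livers, against 24.7, 46.7, 32.7, 48.2 and 17.2 CPM in Ctrl livers, with the same 2 mice highest. Kupffer cell markers summed to 310 to 638 CPM in these Maf1hep-/- livers and 344 to 495 CPM in Ctrl livers, with 0 of 10 at an unadjusted p under 0.05. Erythroid markers summed to 58.1 to 151 CPM and 54.9 to 95.2 CPM. All 5 had an estimate above zero, with a median of 1.49, and 3 were higher at an unadjusted p under 0.05 (background 3.3%). Hepatocyte markers summed to 102958 to 116870 CPM and 88585 to 104766 CPM. Of those 8, 5 had an estimate above zero and 2 were higher at an unadjusted p under 0.05. The part of these cells in the values was not tested.

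**Figure D4:**
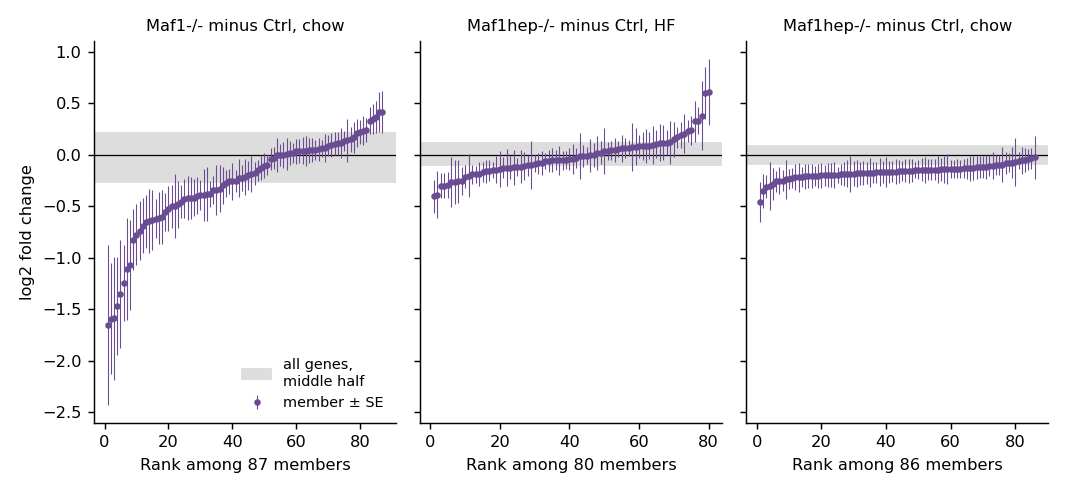
Log2 fold change of each ribosomal protein mRNA, knockout over Ctrl, ranked within each of the 3 cohorts, with SE as bars and the middle 50% of all genes as a grey band. In Chow-fed Maf1hep-/- livers all 86 lie below zero, between -0.46 and -0.03, and in the other cohorts they lie on both sides.

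Whether the knockout effect differed between settings was tested directly. Between HF-fed and Chow-fed Maf1hep-/- mice, no mRNA passed an adjusted p of 0.05 for a difference of effects (0% of 12970 genes). At an unadjusted p under 0.05, 9 had a higher effect on the HF diet (background 2.64%) and 0 a lower one (background 257 of 12970 genes). DESeq2 and limma-voom called 0 as well. The largest of these 9 were Rps13, a small-subunit protein (0.77 ± 0.29), and Rps21 (0.59 ± 0.18), each with an edgeR adjusted p of 0.998. Of 86 estimates 66 were above zero, with a median of 0.14.

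Between whole-body and hepatocyte knockout on chow, again none passed (0% of 12857 genes, smallest adjusted p among the members 0.398). At an unadjusted p under 0.05 the effect in Maf1-/- livers was lower for 2 (background 7.5%), the stalk genes Rplp1 (-1.38) and Rplp2 (-1.47), and higher for 7 (background 4.85%), with Rps24 at 0.62 and Rps6 at 0.59. The Ctrl livers of these cohorts themselves differed, with 9 of the 87 lower in whole-body Ctrl than in floxed Ctrl livers (background 5.91%) and 8 higher (background 4.95%). Among those, Rpl39, a small protein of the exit tunnel, had a log2 difference of 1.12 (edgeR adjusted p = 0.00287) and Rpsa had -0.71 (0.0184).

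By contrast, HF-fed and Chow-fed livers differed in most of the ribosomal protein mRNAs. In floxed Ctrl livers 73 of 86 were lower on the HF diet (background 28.3% of 12970 genes) and 2 were higher (background 25.3%), with a median log2 fold change of -1.58 against 0.01 for all genes. The median was -2.12 for large-subunit and -1.19 for small-subunit genes. In 69 of 86 every HF-fed liver lay below every Chow-fed liver (background 23.5%). In Maf1hep-/- livers 65 were lower (background 25.1%) and 3 higher (background 21.8%), with a median of -1.43 and 64 without overlap (background 23.9%). The deposited counts were whole numbers throughout in HF-fed libraries, whereas 69.8% to 74.8% of the counts were whole in Chow-fed libraries, so diet also cannot be told apart from how the counts were made. Markers of other cells differed too, with the same limit. In floxed Ctrl livers 6 of 10 Kupffer cell markers were called higher and 1 lower on HF, with sums of 344 to 495 CPM in HF-fed and 227 to 304 CPM in Chow-fed livers and a median log2 fold change of 0.71. Of 5 erythroid markers 4 were called lower, with a median of -3.88. This list includes paralogous globin genes, so the median is not given as a measure of erythroid content. Their sums overlapped, at 54.9 to 95.2 CPM (mean 70.5) in HF-fed and 85.4 to 297 CPM (mean 142) in Chow-fed livers. The part of these cells in the ribosomal protein values was not tested.

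The largest differences were far outside the spread between mice. Rpl24 (chr16:55966275-55971435, plus strand), a large-subunit protein at the interface of the subunits, had 0.182, 0.184, 0.131, 0.219 and 0.224 CPM in HF-fed Ctrl livers, against 95.8, 106, 98.2 and 92.2 CPM in Chow-fed Ctrl livers (log2 fold change -8.99 ± 0.14, edgeR adjusted p = 7.14e-18). It had 2 to 8 counts in the 9 HF-fed libraries. Rpl36al (chr12:69182731-69184083, minus strand), a relative of Rpl36a, had 0.0918 to 0.280 CPM in HF-fed and 65.8 to 92.1 CPM in Chow-fed Ctrl livers (-8.98 ± 0.21, edgeR adjusted p = 5.71e-16). No HF-fed liver came near the range of the Chow-fed livers in either gene.

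Rps29 (chr12:69157722-69159186, minus strand), a zinc-binding small-subunit protein, had 0.213, 0.275, 0.360, 0.187 and 0.140 CPM in HF-fed Ctrl livers, against 63.8, 74.9, 66.7 and 49.1 CPM in Chow-fed Ctrl livers (-8.07 ± 0.20). Rps23 had 0.882, 0.979, 0.720, 1.12 and 0.953 CPM, against 111, 117, 116 and 97.8 CPM (-6.88 ± 0.12). Rps6 had 3.50, 3.86, 3.37, 3.59 and 3.84 CPM, against 373, 398, 381 and 329 CPM (-6.66 ± 0.12). HF-fed livers thus had 103 to 184 counts of Rps6, a gene that was among the 3 highest per kilobase over all livers.

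The genes of the 5S rRNA-binding proteins both fell, with log2 fold changes of -3.72 ± 0.13 for Rpl5 and -3.45 ± 0.12 for Rpl11, and Rpl10 (chrX:74270812-74273135, plus strand) had -3.84 ± 0.10. The stalk genes differed among themselves, with -0.73 ± 0.16 for Rplp0, -2.27 ± 0.29 for Rplp1 and -3.54 ± 0.17 for Rplp2. Rplp0 had 152, 197, 170, 226 and 127 CPM in HF-fed Ctrl livers, against 280, 321, 304 and 257 CPM in Chow-fed Ctrl livers. Rpsa had -1.99 ± 0.19. Each of these 7 passed an edgeR adjusted p of 0.05.

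Other members were not lower, or were lower by less. Rps3 had 171, 185, 190, 189 and 156 CPM in HF-fed Ctrl livers, against 174, 185, 192 and 155 CPM in Chow-fed Ctrl livers (0.02 ± 0.10, edgeR adjusted p = 0.869). Rps21 was lower by a smaller amount (-0.39 ± 0.12, edgeR adjusted p = 0.0127). Rpl39 (chrX:37082520-37085402, minus strand) had 42.1, 46.1, 40.0, 46.6 and 40.7 CPM in HF-fed Ctrl livers, against 31.2, 33.3, 29.9 and 25.7 CPM in Chow-fed Ctrl livers (0.53 ± 0.12, edgeR adjusted p = 0.00107), with every HF-fed liver above every Chow-fed one.

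Rps14, a small-subunit gene within the region lost in human 5q- syndrome, had 83.1, 103, 90.3, 121 and 66.0 CPM in HF-fed Ctrl livers, against 59.6, 61.3, 82.8 and 55.2 CPM in Chow-fed Ctrl livers (0.53 ± 0.18, edgeR adjusted p = 0.0222). The groups overlapped, and the call was lost without Chow-fed Ctrl mouse 1 (adjusted p = 0.0536), mouse 2 (0.0553) or mouse 4 (0.0682) or HF-fed Ctrl mouse 4 (0.0646). In Maf1hep-/- livers the 3 higher genes were Rps14 (0.76 ± 0.19), Rpl39 (0.45 ± 0.12) and Rpl22 (0.38 ± 0.07).

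In all, 11 of the 86 passed in neither direction in floxed Ctrl livers. Besides Rps3 they were Rpl22, Rpl22l1, Rpl26, Rpl32, Rpl37a, Rpl7l1, Rps19, Rps27l, Rps4x and Rps9, some of which are named here after their values were seen. Rpl22 had 76.1, 76.4, 68.3, 77.7 and 78.4 CPM in HF-fed Ctrl livers, against 69.4, 72.9, 66.3 and 62.9 CPM in Chow-fed Ctrl livers, a log2 difference of 0.16 that did not pass.

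The same genes can be followed in Maf1hep-/- livers, which are different mice from the Ctrl livers but were sequenced in the same 2 cohorts. Rpl24 had 0.0601, 0.0937, 0.154 and 0.0768 CPM in HF-fed Maf1hep-/- livers, against 98.1, 78.2, 87.6 and 94.1 CPM in Chow-fed Maf1hep-/- livers (log2 fold change -9.83 ± 0.16, edgeR adjusted p = 3.11e-17). Rps6 had 3.58, 3.78, 3.49 and 4.71 CPM in HF-fed Maf1hep-/- livers, against 346, 267, 342 and 337 CPM in Chow-fed ones (-6.37 ± 0.13). Both genes were lower in every HF-fed mouse, as in Ctrl livers.

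Rpl10 had 21.4, 23.6, 23.0 and 22.9 CPM in HF-fed Maf1hep-/- livers, against 303, 265, 351 and 333 CPM in Chow-fed ones (-3.78 ± 0.11), and Rpl5 had -3.71 ± 0.14. Of the stalk genes, Rplp2 had -3.30 ± 0.18, Rplp1 -1.78 ± 0.30 and Rplp0 -0.45 ± 0.17 (edgeR adjusted p = 0.0356), the same order as in Ctrl livers. Rps3 (0.18 ± 0.11, edgeR adjusted p = 0.170) and Rps21 (0.20 ± 0.13, edgeR adjusted p = 0.216) did not pass. Rps21 had 31.8, 37.6, 34.8 and 51.7 CPM in HF-fed Maf1hep-/- livers, against 39.5, 29.3, 32.5 and 34.7 CPM in Chow-fed ones, and the groups overlapped.

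Pseudogene copies were lower as well, Rps4l with -1.66 ± 0.22 on the log2 scale in Ctrl livers. Rps12l1, listed as a processed pseudogene, had 0 counts in all 9 HF-fed livers, against 3.35, 3.83, 2.87 and 2.57 CPM in Chow-fed Ctrl livers and 2.44, 2.16, 2.65 and 3.47 CPM in Chow-fed Maf1hep-/- livers. With a floor of 3 counts per library, it was at least 34.4-fold lower in HF-fed Ctrl and at least 30.3-fold lower in HF-fed Maf1hep-/- livers. Of the coding relatives of other copies, Rpl36a had -3.81 ± 0.18 and Rps27 had -2.28 ± 0.14 on the log2 scale in Ctrl livers. Rps27l, a separate coding relative of Rps27, had -0.18.

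The difference between diets was larger for transcripts that share more sequence with other genes, measured as the share of its 100-base words that also occur in another gene's transcript. For the 6 members that share none, the median in floxed Ctrl livers was -0.29, with 3 of 6 called lower. For 38 that share up to 25% it was -0.91, with 30 lower. For 34 that share 25% to 75% it was -2.44, with 32 lower, and for 8 that share over 75% it was -3.82, with all 8 lower. All genes in these classes had medians of 0.07, -0.10, -1.997 and -6.57. Of all genes, 2290 of 10396, 611 of 1695, 454 of 537 and 316 of 326 were called lower in these classes. Across the 86 members Spearman's rho was -0.60, and across 12954 genes it was -0.30, given as a description with genes that are not independent. In Maf1hep-/- livers the members of these classes had medians of 0.19, -0.89, -2.22 and -3.85. Of the 6 that share none, 2 were called lower there and 1 higher.

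Rpl24, Rps6 and Rpl10 share 80.1%, 83.6% and 78.4% of their words, and Rps3, Rps21 and Rpl22 share 0%. Rps29, at 24.7%, and Rpl36al, at 18.4%, share less and were among the lowest on the HF diet. The 55 tested members whose counts were fractional in all 20 Chow-fed libraries had a median of -1.54 in floxed Ctrl livers, with 47 called lower. All 2124 genes of this class had a median of -0.36, with 1077 called lower. The 5 members whose counts were whole in all 20 had a median of -0.54, with 4 called lower. All 8216 genes of that class had a median of 0.08, with 1740 called lower.

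**Figure D5:**
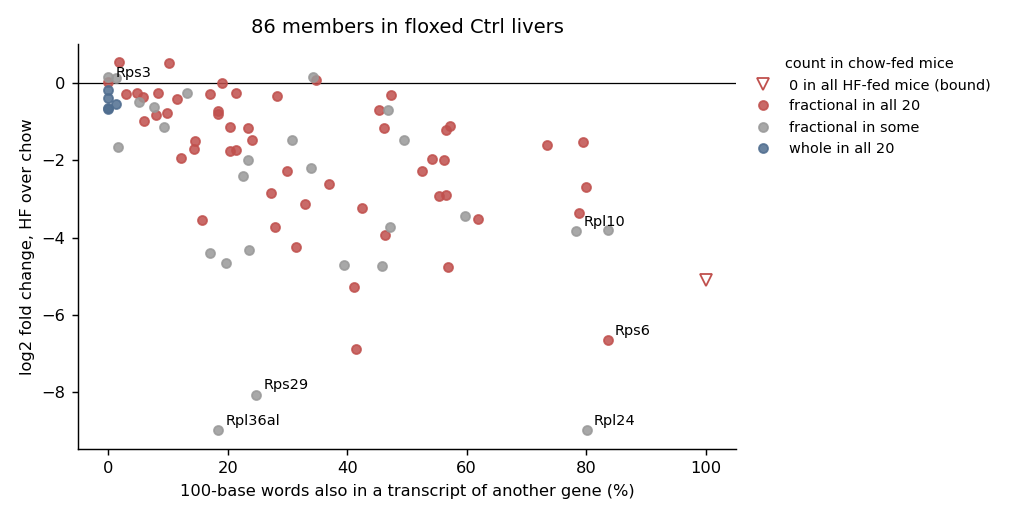
Log2 fold change of each ribosomal protein mRNA, HF-fed over Chow-fed floxed Ctrl, against the share (%) of its 100-base words found in another gene's transcript, coloured by whether its counts were fractional in the 20 Chow-fed libraries. The 6 members that share no words have a median of -0.29, with 3 of them called lower. Members that share over 75% have a median of -3.82, and Rps12l1 is drawn at its bound.

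Genes of ribosomal proteins and their partners that fall outside the symbol rule were looked at for comparison. Fau, which encodes a small-subunit protein fused to a ubiquitin-like protein, had a log2 fold change of -2.59 ± 0.17 for HF-fed over Chow-fed floxed Ctrl livers. Rack1, a scaffold on the small subunit, had -0.31 ± 0.13 (edgeR adjusted p = 0.057).

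Members with and without a pyrimidine run at the start were set side by side. In Maf1-/- livers the median log2 fold change was -0.03 for the 37 members with a run and -0.26 for the 27 without. In Chow-fed Maf1hep-/- livers it was -0.16 for both sets, and in HF-fed Maf1hep-/- livers it was 0.02 with a run and -0.12 without. For HF-fed over Chow-fed floxed Ctrl livers it was -1.79 with a run and -1.70 without. These are descriptions with no test of the differences.

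The wider ribosome programme was followed in 4 lists. Of 20 other TOP mRNAs (translation factors and relatives), 0 passed an edgeR adjusted p of 0.05 in Maf1-/- livers, with a median of 0.05, and at an unadjusted p under 0.05 there were 2 higher (background 10.8%) and 2 lower (background 15.4%). Likewise 0 passed in Chow-fed or HF-fed Maf1hep-/- livers, with medians of -0.13 and 0.02. At an unadjusted p under 0.05 there were 1 higher and 1 lower in Chow-fed and 0 in HF-fed Maf1hep-/- livers. Of all genes, 187 of 12570 were higher and 0.907% lower on chow, and 3.3% were higher and 2.74% lower on HF. These shares also apply to the lists below. Between diets in floxed Ctrl livers 3 were higher (background 25.3%) and 13 lower (background 28.3%) on HF, with a median of -0.48, Tpt1 (-4.67 ± 0.10), Eif2s3x (-4.62 ± 0.12), a subunit of initiation factor 2, and Hnrnpa1 (-1.61 ± 0.10), an RNA-binding protein, having the smallest p. Of 30 ribosome biogenesis genes, 0 passed in any knockout comparison, with 5 higher and 4 lower at an unadjusted p under 0.05 in Maf1-/- livers (background 10.8% and 15.4%) and 0 in either Maf1hep-/- comparison. Between diets 4 were higher (background 25.3%) and 16 were lower (background 28.3%) on HF with a median of -0.34. They included Fbl, the rRNA methyltransferase fibrillarin (-3.31 ± 0.14), and Nolc1, a nucleolar phosphoprotein (-0.92).

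Of 15 genes of RNA polymerase I and its factors, which make the large rRNA precursor, 0 passed in the knockout comparisons (3 higher and 1 lower at an unadjusted p under 0.05 in Maf1-/- livers, background 10.8% and 15.4%, and 0 in the others). Between diets 0 were higher (background 25.3%) and 5 lower (background 28.3%) on HF in floxed Ctrl livers, the lower share being near the background. Taf1d, a subunit of its selectivity factor, had -2.36 ± 0.11 and Ubtf, its upstream binding factor, -0.58. Of 12 regulators of TOP mRNAs, 0 passed in the knockout comparisons (1 higher and 3 lower at an unadjusted p under 0.05 in Maf1-/- livers, background 10.8% and 15.4%, and 0 in the others). On HF 5 were higher (background 25.3%) and 1 lower (background 28.3%). Eif4ebp2, a repressor of cap-dependent translation, had 2.54 ± 0.20, and the single lower gene was its relative Eif4ebp1 (-0.72).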

How the data were processed

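The authors trimmed reads with TrimGalore 0.6.4, aligned them with STAR 2.5.0a to mm10 and deposited RSEM expected counts per gene. Positions, lengths and transcript sequences came from GENCODE vM21. The table holds 12992 genes and 29 libraries. Expected counts were rounded, genes reaching 1 CPM in at least 1 mouse of a fit were kept, and each cohort (or, between diets and between knockouts, the cohorts compared together) was scaled by TMM and tested with edgeR 4.0.16 quasi-likelihood (R 4.3.3), Benjamini-Hochberg adjusted over all genes tested. Fold changes are the log2 estimates of the fit, and a prior count of 2 was used only for levels on the log2 CPM scale. CPM shown are on 1 TMM scale over all 29 libraries. Alternatives were DESeq2 1.42.0, limma-voom 3.58.1 with 0, 1 or 3 RUVr factors, other scalings and filters, GC and transcript length terms, a replicate block and leaving out each mouse. Scripts were tested on simulated data. Permutation tests went through every split of the mice with numpy 2.4.6, and Spearman's rho was computed with scipy 1.17.1.

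Each library came from a different mouse. No main fit paired mice by replicate number. A fit with a replicate block was run as an alternative in all cohorts. Correlations of same-numbered deviations between genotypes were 0.367, 0.102, 0.231 and 0.246 in the HF cohort. They ran from -0.566 to 0.327 in the whole-body cohort and from -0.336 to 0.246 in the Chow-fed hepatocyte cohort. The labels do not say what the numbers share.

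The members and the gene lists were chosen with earlier results of these data known. Named genes were, per comparison, up to 8 called members in each direction with the largest change or, where none was called, the 4 with the smallest p. To these were added measured relatives of other members, the 3 highest and 3 lowest levels per kilobase, the 3 largest within-group SDs, the stalk and 5S rRNA-binding genes, Rps6, Rpsa, Fau, Rack1 and Maf1, and up to 3 of each list by smallest p. Some items that this rule names are not reported here. Motifs were searched on the coding strand only.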

Additional observations from a re-analysis of the deposited data

Results flagged for a closer look

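In groups of 4 to 7 mice, 13 of 168 sets of values had 1 mouse far from the rest of its group, and chance gives this in about 1 in 20 sets. Whole-body Ctrl mouse 2 was the low mouse in 7 of them. The GC-rich minus GC-poor difference of the ribosomal protein mRNAs was -1.29 in this mouse, with the other Ctrl mice at -0.54 to -0.14. Its level was 70.1 CPM of Rplp0 (others 220 to 280), 3.37 CPM of Rplp2 (others 29.7 to 46.3) and 1.06 CPM of Rps12l1 (others up to 4.14). It was 34.4 CPM of Rps19 (others 69.4 to 88.0), 27.7 CPM of Rps28 (others 58.9 to 69.6) and 4.83 CPM of Rps29 (others 49.0 to 77.9).

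Chow-fed Maf1hep-/- mouse 2 was low in Rps23 (78.8 CPM, others 97.2 to 99.9) and in Rps6 (267 CPM, others 337 to 346). The remaining cases were single genes in other mice. Rpl10a was high in whole-body Ctrl mouse 1 (159 CPM, others 98.4 to 118). Rpl22 was high in Maf1-/- mouse 5 (106 CPM, others 72.4 to 81.4) and low in HF-fed Ctrl mouse 3 (68.3 CPM, others 76.1 to 78.4). Rpl27 was high in HF-fed Maf1hep-/- mouse 1 (1.47 CPM, others 0.957 to 0.998).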

How the results depend on the processing

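In Maf1-/- livers, where edgeR called 0 of the 87 members, DESeq2 called 1 (Rps4l), limma-voom 0, and limma-voom with 1 and 3 RUVr factors 35 and 54. Over the fits that left out 1 mouse the count was 0 to 41, the number below zero 53 to 68 and the median log2 fold change -0.29 to -0.13. Of these, the fit without whole-body Ctrl mouse 2 gave 41. The same fits gave 0 to 0 calls, 80 to 86 below zero and medians of -0.22 to -0.09 in Chow-fed Maf1hep-/- livers, and 0 to 0 calls, 37 to 61 below zero and medians of -0.08 to 0.01 in HF-fed ones. For HF over chow they gave 72 to 77 calls, 78 to 81 below zero and medians of -1.64 to -1.54 in floxed Ctrl livers, and 66 to 71 calls, 75 to 79 below zero and medians of -1.55 to -1.34 in Maf1hep-/- livers. For the difference of knockout effects between diets they gave 0 to 0 calls, 11 to 33 below zero and medians of 0.07 to 0.20. A transcript length term moved the HF over chow medians to -1.27 in Ctrl and -1.22 in Maf1hep-/- livers, and the number of diet differences below zero to 37. Runs beginning within 25 bases of the start were found in 81.2% of members, against 59.3% of all genes in the promoter table. With the replicate block, 0 members were called in each knockout comparison, and 62, 86 and 51 were below zero in Maf1-/-, Chow-fed and HF-fed Maf1hep-/- livers, and 73 and 68 were called for HF over chow in Ctrl and Maf1hep-/- livers. The block changed no call count of the members by over 1.5 times, but in the HF cohort it called 45 genes in all, against 2 without it. No direction of a called value was reversed in the alternatives run. The causes of these shifts were not tested. Counting depth limits 7 of the 8 members under 1 CPM on the HF diet, which had at most 14 counts in any HF-fed library, the exception being Rps23 with 22 to 41.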
